A study of Mus musculus with 6 samples.

Results

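The FoxO factors Foxo1, Foxo3 and Foxo4 and 5 genes known as FoxO targets or brakes on growth signalling, Arrdc3, Txnip, Pik3ip1, Irs2 and Ccng2, were read in RNA-Seq data from sorted CD4+CD8+ double-positive (DP) thymocytes. All 8 genes were found by symbol, each as 1 of the 22322 genes of the deposited table. They were chosen by name as a pathway group, with the difference between the groups in these same libraries already known. That difference is therefore given for them as a description, without a test. The 3 control libraries are labelled WT and the 3 cKO libraries Lck-KO. By the study's methods, the controls of every experiment were Paxbp1fl/fl mice. The cKO mice were Paxbp1fl/fl and also carried an Lck-cre transgene, which deletes floxed sequence in T cells from an early thymocyte stage. By this account all animals carried the floxed allele, in which loxP sites flank exon 8, and no treatment was given. The floxed line was on the C57BL/6 background. Controls were littermates, and the study's mice were of mixed sexes and 4 to 7 weeks old. The labels do not tie a library to an animal, so the spread between libraries of a group is the only replicate error available here, it may be technical, and p-values measure no more than it.

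FoxO proteins are forkhead transcription factors that turn on genes of growth arrest, stress resistance and quiescence. When growth factor or antigen receptors activate PI3K, the kinases AKT and SGK phosphorylate FoxO proteins, which are then bound by 14-3-3 proteins and exported from the nucleus. In lymphocytes Foxo1 is known for controlling survival and antigen receptor genes, and DP thymocytes are small cells that have mostly left the cell cycle. The level of a FoxO mRNA does not report where the protein is or whether it is active.

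Sequence just upstream of the genes is shown first for 3 of the 4 members with a FoxO-type motif there. Among them, Txnip and Arrdc3 had the largest differences of the group. Ccng2 also held such a motif and is described below without its sequence. The windows run from 250 bases before to 50 bases after each start site that RefSeq annotates on GRCm38.p6, and 7 of the 8 members matched one (Foxo4 did not). In all, 3 motifs were searched on both strands, the FoxO core GTAAACA, the shorter TTGTTT, and the E-box CACGTG. Capitals mark every match.

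Txnip, chr3:96557796-96557883, plus strand: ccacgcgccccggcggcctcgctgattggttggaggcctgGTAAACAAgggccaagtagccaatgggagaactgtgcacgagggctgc

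Arrdc3, chr13:80883321-80883383, plus strand: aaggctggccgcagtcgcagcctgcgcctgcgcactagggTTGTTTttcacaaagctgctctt

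Irs2, chr8:11008930-11009013, minus strand: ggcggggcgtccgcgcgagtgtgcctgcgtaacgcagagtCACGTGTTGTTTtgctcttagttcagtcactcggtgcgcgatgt

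In Txnip the core GTAAACA began 121 bases before the start site, and it overlapped a reverse match of TTGTTT by 5 bases. Txnip was the member with the core, which 3.65% of all 32851 windows held. TTGTTT began 23 bases before the first of 3 annotated start sites of Arrdc3 and 38 bases before that of Irs2, where it directly followed an E-box. Ccng2 held TTGTTT at 2 places on the reverse strand, 8 and 14 bases before its RefSeq start, a stretch that GENCODE M21 places inside the gene. This shorter motif was present in 20.7% of all windows and the E-box in 7.15%, so a single match is common for the former. The windows of Foxo1, Foxo3 and Pik3ip1 held none of these letters. All distances are from RefSeq starts, which for other members can also differ from those of GENCODE M21. GENCODE M21 starts Irs2 at 11008458, downstream of its whole window. It starts Pik3ip1 at 3330401, so the window from 3330481 to 3330780 lies inside that gene. A match is a string of letters and not a measured binding site.

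Library totals ran from 18963775 to 26252248 counts, and 1 count equalled 0.0381 to 0.0527 CPM (a count divided by its library's total and set to a common scale). Levels below are CPM after TMM scaling of library sizes, and fold changes come from edgeR's quasi-likelihood fit over 11488 genes, with cKO over control as the direction. Paxbp1, the targeted gene, was counted 774, 318 and 400 times in the control libraries, numbered 1 to 3, and 851, 905 and 1075 times in those labelled cKO. In CPM it stood at 40.1, 16.3 and 15.5 in control and at 38.8, 47.1 and 49.6 in cKO libraries. Control library 1 thus lay within the cKO range and apart from control libraries 2 and 3. These counts cover the whole gene rather than exon 8, so they do not check the genotype labels, and each direction given here rests on the labels. The summed level of 8 DP markers lay between 9110 and 11200 CPM in the control libraries and between 6760 and 8100 CPM in the cKO libraries, with none of the 8 at 0. Without Rag1 the DP sums met, at 6570 to 8810 and 5640 to 6570 CPM. That of 10 macrophage markers lay between 6.99 and 23.7 CPM in control and between 44.2 and 63.6 CPM in cKO libraries, with Mertk at 0 throughout. For 5 markers of double-negative (DN) thymocytes, the stage before DP, the sums were 76.3 to 122 CPM in control and 132 to 158 CPM in cKO libraries, and for 5 markers of mature single-positive (SP) cells 293 to 455 and 236 to 328 CPM. The DN sums were apart through Hes1, a Notch target, without which they overlapped at 66.8 to 113 and 78.5 to 99.2 CPM. Taken alone, the DN marker Il2ra was also apart, at 4.67 to 7.76 CPM in control and 11.3 to 16.6 CPM in cKO libraries. For the DN markers Cd44, Kit and Ptcra the groups overlapped. The sums were 40.9 to 45.1 and 25.7 to 28.8 CPM for 5 B cell markers, 17.1 to 90.2 and 0.547 to 30.6 CPM for 4 erythroid markers, and 11.3 to 13.7 and 9.53 to 13.7 CPM for 5 thymic epithelial markers, of which Krt5 was at 0. The B cell sum was nearly all Cd79b, and without it stood at 0.103 to 0.66 and 0.369 to 2.37 CPM. The part of these shifts in the differences below was not tested. In bulk RNA, fewer cells of a type and less RNA per cell cannot be told apart.

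Of the 3 FoxO factors, Foxo1 was higher in the cKO libraries while the groups overlapped for Foxo3 and Foxo4. Foxo1, the best known FoxO factor of lymphocytes (ENSMUSG00000044167, chromosome 3 of GRCm38 from 52268336 to 52353221 in GENCODE M21), stood at 118.1, 93.6 and 95.8 CPM in control libraries 1, 2 and 3. In cKO libraries 1, 2 and 3 it stood at 147.9, 131.6 and 179.2 CPM. Every cKO library was above every control library. The means were 102.5 ± 13.6 and 152.9 ± 24.2 CPM (S.D. over 3 libraries a group), a ratio of 1.49 and a log2 fold change of 0.58 (standard error, SE, 0.15). With 1 library left out in turn this value ranged from 0.45 to 0.69.

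Foxo3, a factor tied to stress responses and cell death (ENSMUSG00000048756, chromosome 10 from 42181841 to 42276755), had 49.2, 38.6 and 44.2 CPM in control libraries 1, 2 and 3. It had 50.2, 41.3 and 47.0 CPM in cKO libraries 1, 2 and 3, so the groups overlapped over nearly their whole range. The log2 fold change was 0.07 (SE 0.15). Foxo4, the X-linked factor of the family (ENSMUSG00000042903, chromosome X from 101254528 to 101260873), was the lowest of the 8 members. It had 7.52, 4.47 and 7.96 CPM in control and 9.44, 5.52 and 5.998 CPM in cKO libraries 1, 2 and 3, from 87 to 207 counts per library. Its log2 fold change was 0.07 (SE 0.34), and the highest and the second lowest of the 6 values were both cKO libraries.

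The deposited FPKM, which are scaled to transcript length, gave Foxo3 another picture. They were 13.7, 8.11 and 12.1 in control and 16.9, 12.8 and 14.8 in cKO libraries 1, 2 and 3, a log2 ratio of the group means of 0.39 rather than the 0.07 from counts. The FPKM that 1 CPM of Foxo3 was worth ran from 0.210 in control library 2 to 0.337 in cKO library 1, a 1.61-fold range. For the other members this range was between 1.03-fold and 1.18-fold. The submitters' notes name StringTie as well as RSEM, and whether the transcripts assigned to Foxo3 differed between the libraries was not tested. On the FPKM scale Foxo1 made up 41.8% to 52.6% of the summed FoxO mRNA in control and 46.2% to 55.0% in cKO libraries. Foxo3 made up 39.9% to 46.6% and 39.4% to 45.5%, and Foxo4 7.48% to 11.6% and 5.64% to 8.32%. On this scale the proportions of the 3 factors overlapped between the groups, but they carry the uneven FPKM of Foxo3 described above. In CPM the groups were apart for Foxo1 and overlapped for Foxo3 and Foxo4. By counts the log2 fold change was 0.58 for Foxo1 and 0.07 for Foxo3 and for Foxo4. Relative to Foxo3 and Foxo4, the cKO mean of Foxo1 by counts was thus higher. The overlapping FPKM shares do not show this shift, and it was not tested.

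**Figure D1:**
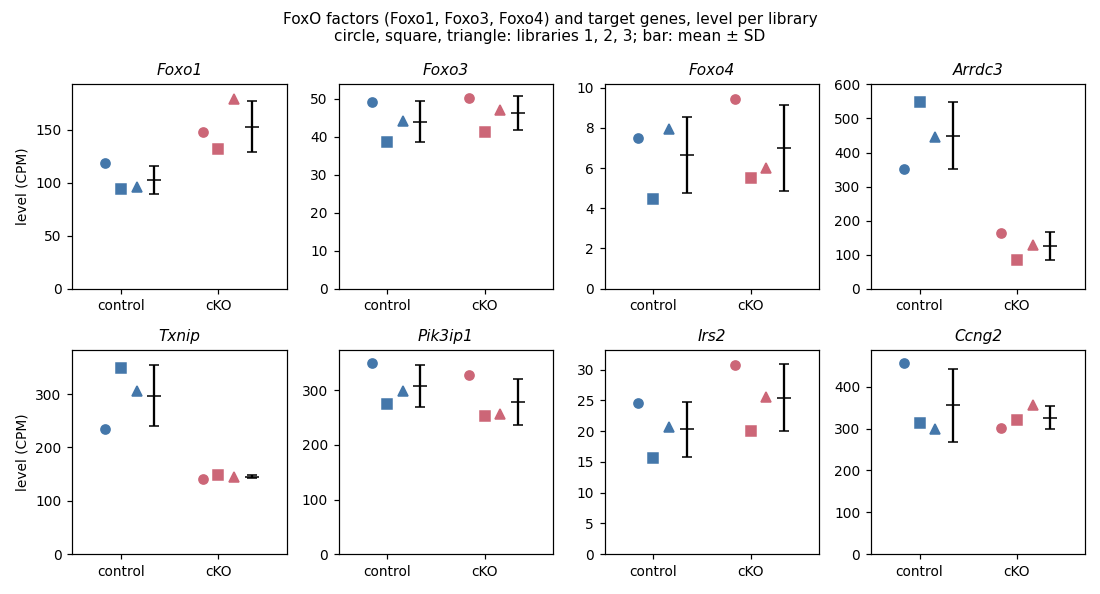
Level of each of the 8 genes in CPM (y axis from 0) in the 3 control (blue) and 3 cKO (red) libraries; circles, squares and triangles are libraries 1, 2 and 3, and the bar at the right of each group is mean ± S.D. The groups are apart for Foxo1, Arrdc3 and Txnip and overlap for the other 5 genes.

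The 2 alpha-arrestins of the group had the largest differences, both lower in the cKO libraries. Arrdc3, an adaptor that brings NEDD4-type ubiquitin ligases to membrane receptors such as the beta-adrenergic receptor (ENSMUSG00000074794, chromosome 13 from 80883384 to 80896042), had 352.5, 549.0 and 446.7 CPM in control libraries 1, 2 and 3. In cKO libraries 1, 2 and 3 it had 164.5, 84.4 and 127.9 CPM. The highest cKO library was below the lowest control library. The means were 449.4 ± 98.3 and 125.6 ± 40.1 CPM (S.D. over 3 libraries a group), a ratio of 0.280 and a log2 fold change of -1.84 (SE 0.24). Leaving out 1 library in turn gave values between -2.08 and -1.62.

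Txnip, which binds thioredoxin and restrains glucose uptake (ENSMUSG00000038393, chromosome 3 from 96557957 to 96561883), had 235.4, 348.9 and 306.8 CPM in control libraries 1, 2 and 3. The cKO libraries 1, 2 and 3 stood close together at 141.8, 147.6 and 145.1 CPM, below every control library. The means were 297.0 ± 57.4 and 144.8 ± 2.91 CPM (S.D. over 3 libraries a group), a ratio of 0.488 and a log2 fold change of -1.04 (SE 0.15). Leaving out 1 library in turn gave values between -1.18 and -0.91. The coefficient of variation of Txnip was 19.3% among control and 2.01% among cKO libraries, where counting error alone amounts to 1.82% in the latter. Arrdc3 varied by 21.9% among control and 32.0% among cKO libraries, so the genes did not share their spread within the cKO group. In the control libraries their order was the same, with library 2 highest and library 1 lowest for both genes. In the cKO libraries the Txnip values lay too close together to give an order. Per transcript length, the ratio of Arrdc3 to Txnip was 1.04 to 1.11 in control and 0.414 to 0.795 in cKO libraries.

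For the members that act on PI3K signalling and the cell cycle the groups overlapped. Pik3ip1, a membrane protein that holds PI3K in check (ENSMUSG00000034614, chromosome 11 from 3330401 to 3342971), had 350.7, 275.0 and 299.2 CPM in control and 327.2, 253.8 and 255.9 CPM in cKO libraries 1, 2 and 3. The groups overlapped, with a log2 fold change of -0.14 (SE 0.14). Irs2, the adaptor between the insulin or IGF1 receptor and PI3K (ENSMUSG00000038894, chromosome 8 from 10984681 to 11008458), had 24.6, 15.6 and 20.7 CPM in control and 30.8, 19.98 and 25.6 CPM in cKO libraries 1, 2 and 3. Its log2 fold change was 0.33 (SE 0.225), with 2 cKO libraries above all control libraries and 1 below control libraries 1 and 3. Ccng2, an unusual cyclin linked to cell cycle arrest (ENSMUSG00000029385, chromosome 5 from 93267257 to 93276231), had 456.0, 313.3 and 298.6 CPM in control and 301.7, 321.1 and 355.6 CPM in cKO libraries 1, 2 and 3. Control library 1 stood above all others, and without it the log2 fold change turned from -0.13 (SE 0.16) to 0.09. The 5 targets thus split into Arrdc3 and Txnip, whose groups were apart, and Pik3ip1, Irs2 and Ccng2, whose groups overlapped.

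In the fit across all genes, 2 of the 8 members were below an adjusted p of 0.05 and lower in cKO libraries (Arrdc3 and Txnip), and 1 was below it and higher (Foxo1). Over all genes tested, 5.89% were called lower and 4.47% higher at that threshold. Arrdc3 and Txnip were also below a log2 fold change of -1, as were 1.23% of all genes with such an adjusted p, and 0 members were above 1, as were 1.53%. Txnip, at -1.04, lay just inside that fold, and Foxo1, at 0.58, lay outside it. The groups did not overlap for 2 members in the lower and 1 in the higher direction, against 17.3% and 15.7% of all genes. The group was put together with these differences known, so nothing is read from these counts. The median log2 fold change of all tested genes was -0.0017. Foxo1 was above the adjusted p threshold when control library 2, control library 3, cKO library 1 or cKO library 3 was left out.

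**Figure D2:**
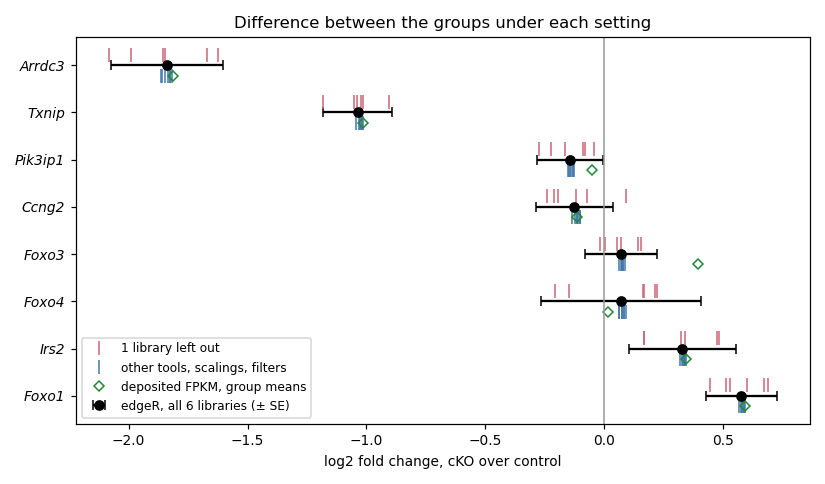
Log2 fold change (x axis, cKO over control) of the 8 genes; black points with bars are the edgeR fit of all 6 libraries ± standard error, red ticks the fits with 1 library left out, blue ticks other tools, scalings, filters and the replicate block, and green diamonds the ratio of the deposited FPKM means. Arrdc3 and Txnip stay below -0.9 in every fit, the ticks of Ccng2, Foxo3 and Foxo4 lie on both sides of 0, and the diamond of Foxo3 is at 0.39.

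Levels of different genes were compared per transcript length, as FPKM. Pik3ip1 (140.5 ± 20.7), Ccng2 (132.2 ± 34.5), Arrdc3 (112.7 ± 23.1) and Txnip (104.6 ± 19.1; mean ± S.D., n = 3) were the highest in the control libraries, and each overlapped its neighbour in this order. Foxo1 (11.8 ± 1.74) and Foxo3 (11.3 ± 2.88) followed and overlapped, and then came Irs2 (3.20 ± 0.745) and Foxo4 (2.31 ± 0.744), which also overlapped. In the cKO libraries Pik3ip1 (135.6 ± 19.55) and Ccng2 (122.0 ± 9.48) overlapped at the top. Txnip (51.8 ± 1.20) and Arrdc3 (32.0 ± 9.30) came next with no overlap between them or with their neighbours, before Foxo1 (17.8 ± 2.68) and Foxo3 (14.9 ± 2.06), which overlapped. Irs2 (4.05 ± 0.860) and Foxo4 (2.33 ± 0.689) were again lowest, apart from each other in these libraries. Among the 15349 genes with a count, Pik3ip1 and Ccng2 were within the top 6.33% by FPKM in every library. Arrdc3 ranked between the top 4.76% and the top 28.2%, and Foxo4 between 56.0% and 61.7%.

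**Figure D3:**
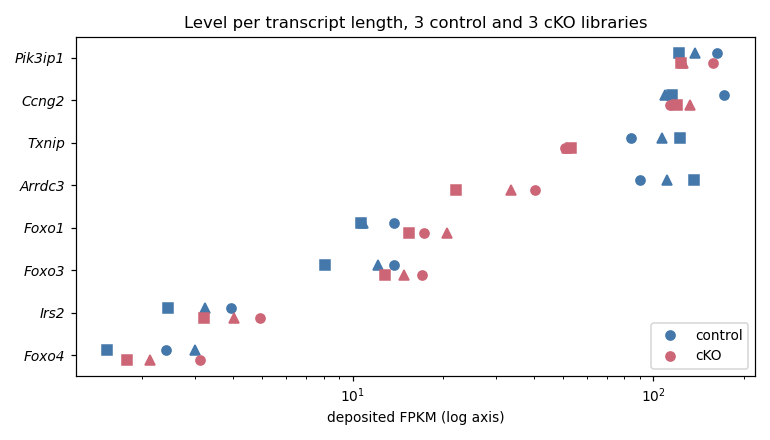
Deposited FPKM (x axis, log scale) of the 8 genes in the 3 control (blue) and 3 cKO (red) libraries, with circles, squares and triangles for libraries 1, 2 and 3. In control libraries 4 genes sit between 84.4 and 172 FPKM, and in cKO libraries Txnip and Arrdc3 sit between 21.99 and 53.1 FPKM.

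Upstream of FoxO, 3 genes of the PI3K-AKT arm fell and 1 rose among 25 tested of 28 listed, that is 16% of the tested genes beside 10.4% of all genes. Here and in the lists below, fell and rose count only genes with an edgeR adjusted p below 0.05. These lists, like the members, were chosen with earlier results of these data known. Their shares and the adjusted p-values of their genes are therefore descriptions and not independent tests. By sign alone, 16 of the 25 were lower and 9 higher in cKO libraries. The median log2 fold change of the list was -0.14. Sgk1, a kinase that phosphorylates FoxO proteins, fell from 140 ± 18.3 to 71.5 ± 2.99 CPM (S.D. over 3 libraries a group), with 119, 151 and 151 CPM in control and 69.2, 74.9 and 70.5 CPM in cKO libraries. Its log2 fold change was -0.97 (SE 0.13, adjusted p = 0.00408 by edgeR), and it passed in all 6 fits that left 1 library out. Igf1r, the IGF1 receptor, fell by 1.36 on the log2 scale (SE 0.29, adjusted p = 0.0181 by edgeR). Inpp4b, a phosphatase that removes a PI3K product, fell by 0.94 (SE 0.24, adjusted p = 0.0340 by edgeR). Pik3cd, the catalytic subunit p110 delta of leukocytes, rose with a log2 ratio of 0.46 ± 0.13 (SE, adjusted p = 0.0476 by edgeR). Igf1r was not called without control library 3 or cKO library 1. Inpp4b and Pik3cd were each called in 1 of the 6 fits with a library left out, and Pik3cd was not called without the filter on low counts or with the replicate number as a block. The most abundant genes of the list that did not pass were Akt2 and Pik3r1, a kinase and a regulatory subunit, with log2 ratios of -0.38 and -0.19 (adjusted p by edgeR 0.0681 and 0.409).

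Among proteins that bind, move or modify FoxO, 0 of 24 tested genes were called lower and 2 higher. That is 8.33% beside 10.4% of all genes. By sign alone 10 were lower and 14 higher, and the median log2 fold change was 0.04. Xpo1, the exportin that carries FoxO out of the nucleus among many other cargoes, rose from 185 ± 24.3 to 273 ± 23.1 CPM (S.D. over 3 libraries a group), with a log2 ratio of 0.56 ± 0.13 (SE, adjusted p = 0.0244 by edgeR). Skp2, a ubiquitin ligase subunit with Foxo1 and cell cycle inhibitors among its substrates, rose from 29.8 ± 4.58 to 48.3 ± 7.81 CPM (S.D. over 3 libraries a group), with a log2 ratio of 0.70 ± 0.18 (SE, adjusted p = 0.0354 by edgeR). Neither was called without control library 2, cKO library 2 or cKO library 3, nor was Skp2 without control library 3. The 14-3-3 genes Ywhaz and Ywhah, the most abundant of the list, had log2 ratios of -0.09 and 0.0029 (adjusted p by edgeR 0.633 and 0.994). Foxo6, the FoxO factor of the brain, had 0 counts in all libraries.

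Other FoxO targets described across tissues held calls in both directions. The list was not split by the direction in which FoxO acts on a gene, so its balance does not measure FoxO activity. Of 28 genes 22 were tested, 2 fell and 1 rose (13.6% beside 10.4% of all genes), with a median log2 fold change of 0.05. The balance of directions depended on the setting, since DESeq2, the fit without a filter and the fit without control library 1 each called 4 higher and 2 lower. Bcl6, a repressor that FoxO factors induce in B cells, fell from 154 ± 26.8 to 69.1 ± 15.5 CPM (S.D. over 3 libraries a group), with a log2 ratio of -1.15 ± 0.19 (SE, adjusted p = 0.00786 by edgeR), and it passed in all 6 fits with 1 library left out. Cited2, a cofactor that binds CBP and p300, fell by 0.90 (SE 0.17, adjusted p = 0.0104 by edgeR). Bcl2l11, which encodes the death protein Bim, rose with a log2 ratio of 1.31 ± 0.30 (SE, adjusted p = 0.0228 by edgeR). Cited2 lost its call without cKO library 3, and so did Bcl2l11 without control library 2, control library 3, cKO library 1 or cKO library 3. The highest genes that did not pass were Map1lc3b, of autophagosomes, and Rbl2, a retinoblastoma relative, with log2 ratios of -0.25 and -0.15 (adjusted p by edgeR 0.179 and 0.441). Of the liver and muscle targets, Trim63, Pdk4, Pck1, G6pc and Igfbp1 had 0 counts in all libraries.

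Among FoxO1 targets of lymphocytes, 7 of 9 genes were tested, 1 fell and 1 rose (28.6% beside 10.4% of all genes), and the median log2 fold change was -0.37. Rag1, which cuts DNA in antigen receptor rearrangement, fell from 2300 ± 308 to 1270 ± 233 CPM (S.D. over 3 libraries a group), with a log2 ratio of -0.85 ± 0.15 (SE, adjusted p = 0.00923 by edgeR). Ctla4, an inhibitory receptor, rose from 13.1 ± 3.27 to 27.4 ± 3.63 CPM (S.D. over 3 libraries a group), with a log2 ratio of 1.07 ± 0.22 (SE, adjusted p = 0.0174 by edgeR). Rag1 lost its call without cKO library 3, and Ctla4 without control library 2 or any 1 of the cKO libraries. Rag1 is also on the DP marker list, whose summed level was lower in cKO libraries. Rag2, the partner of Rag1, had a log2 ratio of -0.37 without passing (adjusted p by edgeR 0.360). Il7r, the receptor chain that DP cells shut off, had 44 counts over the control and 30 over the cKO libraries and was not tested.

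Of 11 T cell quiescence factors 1 was called lower and 0 higher (9.09% beside 10.4% of all genes). By sign alone 5 were lower and 6 higher, with a median log2 fold change of 0.06. Vsir, the inhibitory receptor VISTA, fell from 83.4 ± 16.2 to 39.7 ± 11.9 CPM (S.D. over 3 libraries a group), with a log2 ratio of -1.07 ± 0.22 (SE, adjusted p = 0.0164 by edgeR), and lost the call without cKO library 1 or cKO library 3. Btg1 and Btg2, which slow proliferation, were the most abundant and had log2 ratios of -0.18 and 0.06 (adjusted p by edgeR 0.666 and 0.894). For 11 genes of cycling cells edgeR called 0 (0% beside 10.4% of all genes), with 1 at an unadjusted p below 0.05. DESeq2 and limma-voom also called 0 of them, beside 1940 and 1317 calls over all genes. In a list of 11, a count of 0 is near the share of all genes, so nothing is read from it. The median log2 fold change of the list was 0.21. Its summed level was 2940, 4710 and 4940 CPM in control libraries 1, 2 and 3. In cKO libraries 1, 2 and 3 it was 3930, 4620 and 5020 CPM, so control library 1 was the lowest. Without control library 1, edgeR called 2 genes of the list lower and 0 higher.

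Relatives and partners of Arrdc3, Txnip and Ccng2 were also read. Of 14 tested genes of 16, 1 fell and 1 rose (14.3% beside 10.4% of all genes), with a median log2 fold change of -0.16. Ccng1, the other G-type cyclin and a p53 target, rose from 114 ± 19.4 to 192 ± 17.0 CPM (S.D. over 3 libraries a group), with a log2 ratio of 0.75 ± 0.14 (SE, adjusted p = 0.0120 by edgeR), and lost the call without cKO library 3. Ccni, a further cyclin of this branch, fell by 0.47 (SE 0.12, adjusted p = 0.0320 by edgeR), and was called in 1 of the 6 fits with a library left out. The alpha-arrestins Arrdc1, Arrdc2 and Arrdc4 stood at log2 ratios of -0.20, -0.07 and 0.63 without passing (adjusted p by edgeR 0.444, 0.902 and 0.546). Whether these differ from that of Arrdc3 was not tested. Txn1, the thioredoxin that Txnip binds, and Nedd4, a ubiquitin ligase, had log2 ratios of 0.02 and -0.21 (adjusted p by edgeR 0.949 and 0.235).

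**Figure D4:**
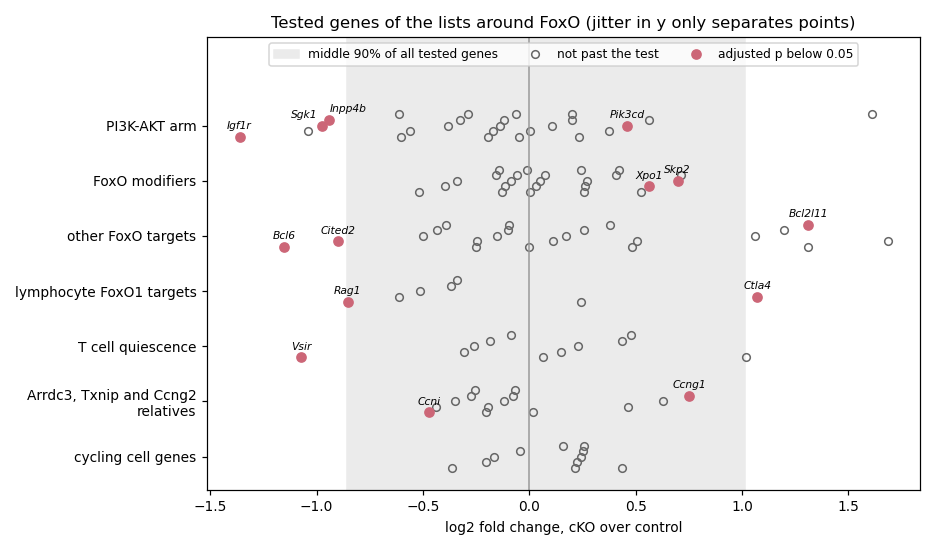
Log2 fold change (x axis, cKO over control) of the tested genes of 7 lists; filled red points, named, have an edgeR adjusted p below 0.05, open points do not, and the grey band spans the middle 90% of all tested genes, from -0.86 to 1.02. Called genes lie on both sides of 0 in 4 of the 7 lists.

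The genes whose pattern over the 6 libraries was most like that of a member were taken by the smallest root mean square difference in log2 CPM, centred on each gene's mean, among 9201 genes. For Txnip these were Sgk1 (0.0772) and Pih1d1 (0.0987), and for Foxo1 Plekho2 (0.0598) and Gch1 (0.0712). Arrdc3 had no gene so close, since the nearest were Zfand4 (0.241) and Fam43a (0.247). Zfand4 had 12.2, 15.8 and 15.6 CPM in control and 6.30, 4.11 and 5.21 CPM in cKO libraries 1, 2 and 3. For Foxo3 the nearest were Lime1 (0.0391) and Heatr6 (0.0395), for Foxo4 Pabpc4 (0.141) and Pars2 (0.148), and for Pik3ip1 Sertad3 (0.0441) and Dnajb12 (0.0444). For Irs2 they were Rybp (0.0646) and Dpm1 (0.0748), and for Ccng2 Tut1 (0.0491) and Plekhm1 (0.0492). These distances describe 6 libraries in 2 groups and were not tested.

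The promoter letters were set beside the calls for all genes with a window. The core GTAAACA was present for 29 of 531 genes called lower (5.46%), 16 of 411 called higher (3.89%) and 293 of 9149 tested (3.20%). For TTGTTT the shares were 19.4%, 15.6% and 16.9%, and for the E-box 9.79%, 15.1% and 11.9%. These shares are descriptions of the letters near annotated start sites, and the differences between them were not tested.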

How the data were processed

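The authors deposited 1 table of 22322 genes with read counts per gene, without normalization, and FPKM (scaled to gene length and library size) for 3 control and 3 cKO libraries. The group mean FPKM, log2 ratio, p-value and FDR columns deposited by the authors hold their own comparison and were not used. The submitters' notes name fastp 0.18.0, Bowtie2 2.2.8, HISAT2, StringTie and RSEM. The sources used here do not give the genome build or annotation. The labels and the study's methods name different library kits (both amplify cDNA), and how strand was used in counting is not stated. RSEM can give estimated counts, and the deposited counts are whole numbers.

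The test was that of edgeR 4.0.16 under R 4.3.3 (TMM, filterByExpr at a count of 10 and a total of 15, quasi-likelihood test, genotype as the only term, Benjamini-Hochberg adjustment over 11488 genes). No pair of libraries in a group were duplicates (chi-square per degree of freedom 19.8 to 68.3). Centred log2 CPM used a prior count of 2 and genes of at least 5 mean CPM. The code was tested on simulated counts. Positions are from GENCODE M21 by Ensembl identifier and promoter windows from RefSeq.

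The members and lists were chosen with earlier results of these data known. Genes named from the lists were those with an adjusted p below 0.05 and the 2 most abundant that did not pass, and for each member the 2 genes nearest in pattern. A gene that this rule names is not reported here. Arrdc1, Arrdc2, Arrdc4, Foxo6, Il7r and the genes at 0 were added after their values were seen. Alternatives were DESeq2 1.42.0, limma-voom (limma 3.58.1), RLE factors, total counts, no filter, a filter at a mean of 1 CPM, a replicate block, leaving out each library, FPKM means and a shorter promoter window. Marker sums without 1 gene and the single DN markers were added after seeing the data. Protein features were not analysed here.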

Additional observations from a re-analysis of the deposited data

How the results depend on the processing

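Of 112 recomputed differences of the 8 members, 111 moved by less than 1 S.D. between replicates, and the exception was Foxo3 at 0.39 from FPKM means. With 3 libraries a group, leaving out 1 can hardly move a difference that far, and most other settings rescale the same counts. The number 111 is therefore no measure of stability. Among the 112 differences the sign turned in 4, all among leave-outs of Foxo3, Foxo4 and Ccng2, none of which was called. Arrdc3 ranged from -2.08 to -1.62 and Txnip from -1.18 to -0.91.

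Counts of called genes depended more on the setting. edgeR called 1191 genes and DESeq2 1940 (953 higher, 987 lower). DESeq2 called 7 of 25 tested genes of the AKT arm, 4 of 24 FoxO modifiers and 6 of 22 FoxO targets. Without the filter 6 FoxO targets were called, beside 1359 genes in all. The calls over all genes changed with the setting too, so nothing about a list is read from its counts here or below. Leaving out 1 library gave between 120 (without cKO library 3) and 2030 calls (without control library 1), with 413, 636, 465 and 745 without control 2, control 3, cKO 1 and cKO 2. Over these 6 fits the calls ran from 1 to 6 in the AKT arm, 0 to 4 for FoxO modifiers, 1 to 6 for FoxO targets, 0 to 3 for T cell FoxO targets, 0 to 3 for quiescence factors, 0 to 2 for relatives and 0 to 2 for proliferation genes. These fits hold fewer samples, and the cause of the other shifts was not tested.

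Libraries of both groups share replicate numbers, and whether equal numbers mark pairs is not known. Correlations of deviations were 0.0451, 0.0377 and -0.03 for equal numbers and ran from -0.0787 to 0.0401 for unlike numbers. With 3 libraries a group these values can neither show nor exclude a pairing. With a replicate block 1238 genes were called, with 5 FoxO targets (3 higher, 2 lower), 2 quiescence factors, 1 proliferation gene, 3 FoxO modifiers (1 of them lower) and 3 genes of the AKT arm (0 higher). Ordered by CPM instead of FPKM, 4 of 8 members kept their place. In the upstream part of the windows alone, 3.17% held GTAAACA, 18.3% TTGTTT and 6.02% CACGTG. For Foxo4, 87 to 207 counts per library limit the precision.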
